A study of Homo sapiens with 6 samples.

Results

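SR proteins are RNA-binding splicing factors named for their domains rich in serine and arginine, and 10 of their genes were followed here through the reads that cross their splice junctions: SRSF1 to SRSF7, SRSF11, TRA2A and TRA2B. A junction was assigned to a gene when it lay inside that gene's window on the hg19 assembly and on its strand. This gave 433 junctions of 780566 listed in the 6 tables, and 137 of the 433 were annotated. The annotated ones carried 99.4% of the 312847 uniquely mapped reads of the 10 genes.

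The libraries came from poly(A)+ RNA of K562, a human chronic myeloid leukaemia line with erythroid features. The controls were 3 libraries of cells that carry U2AF1 knocked in as wild type (WT below), and the other group was 3 libraries of cells with U2AF1 S34F (S34F below). U2AF1 is the small subunit of the factor that contacts the AG at the end of an intron, and S34F exchanges a serine for a phenylalanine in it. The comparison asks how the splicing of SR protein genes differs between S34F and WT cells. The labels do not say whether the libraries of a group came from separate clones or cultures, so p-values measure the spread between these libraries, which may be technical. The point mutation itself cannot be seen in junction counts.

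SR proteins bind exonic sequences and help the spliceosome recognise nearby splice sites, and the related TRA2 proteins do the same at purine-rich elements. Most of these genes are known to regulate themselves through poison exons, highly conserved cassette exons whose inclusion brings in a premature stop codon and sends the transcript to nonsense-mediated decay. In SRSF1 and SRSF2 the same end is known to be reached by splicing within the 3′ untranslated region. Transcripts with a poison exon are degraded, so their measured share is a steady-state share. Genome sequence of the build was not used here, so stop codons and the bases at the splice sites were not read, and exons are named by gene and length. Retained introns leave no junction read and were not measured.

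Depth ran from 18074706 to 39279169 unique spliced reads per library, with S34F replicate 2 the shallowest and S34F replicate 3 the deepest. Junction reads of 6 genes that mark K562 cells (HBG1, HBG2, HBE1, HBZ, GATA1 and TFRC) summed to 2576 to 4118 RPM (reads scaled to 1000000 unique spliced reads per library) in WT and 3736 to 5748 RPM in S34F. Those of 5 genes of other cell types summed to 15.6 to 231.4 RPM in WT and 77.7 to 142.3 RPM in S34F. In 5 libraries most of the latter came from EPCAM, an epithelial adhesion gene, which had no read in WT replicate 1 and 156 to 216 RPM in WT replicates 2 and 3. The embryonic globin genes lay higher in every S34F library than in every WT library: HBE1, epsilon globin, was at 43.7 to 90.1 RPM in WT and at 1282, 143 and 180 RPM in S34F, and HBZ, zeta globin, at 120 to 243 RPM in WT and 398 to 544 RPM in S34F. The part of these differences in the results below was not tested. ALB, the albumin gene, and CD3E, a T cell gene, had 6 and 102 reads over the 6 libraries.

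The clearest change was in TRA2A, which encodes one of the pair of TRA2 splicing activators. A smaller share of reads in S34F joined the first exon directly to the next main exon, and a larger share entered a cassette exon in the intron between them, the place where TRA2A is known to hold its poison exon. The first 5′ splice site lies at chromosome 7, position 23571407, on the minus strand. In WT it was joined to the main acceptor at 23561460 in 86.7%, 87.1% and 87.5% of its reads. In S34F these shares were 66.4%, 71.1% and 71.1%. Every S34F library lay below every WT library, and the gap of the groups was several times their spread. The mean fell from 87.1% ± 0.39 to 69.5% ± 2.7 (SD, n = 3 each), a change of -1.55 in log2 odds (SE 0.37, edgeR adjusted p = 0.017).

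The reads behind these shares were 136 to 241 per WT library and 114 to 291 per S34F library. The 95% Clopper-Pearson interval was 80.7% to 92.5% for WT replicate 3 and 65.6% to 76.3% for S34F replicate 3, and such intervals cover counting error alone, as PCR copies were not marked by molecular identifiers. This was 1 of 77 acceptor events tested in the 10 genes that was called, where a call needs a Benjamini-Hochberg adjusted p under 0.05 over all events of the class and a difference of at least 10 percentage points. Of all 51522 acceptor events 2.12% were called, and 1.09% were called lower in S34F, so the count over the 10 genes is near the background.

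Most other reads of the first TRA2A donor went to the acceptors of a pair of upstream exons. The acceptor at 23562052, shared by exons of 79, 301 and 312 nt that differ in their 5′ splice site, took 9.54%, 11.4% and 8.82% of the first donor's reads in WT and 19.7%, 20.2% and 20.6% in S34F. All 3 S34F values were about 20%, and none of the WT values reached 12%, but the adjusted p was 0.0746 (log2 odds 1.19, SE 0.39, edgeR). The acceptor at 23570890, which opens a 90 nt exon near the first exon, took 3.73%, 0.995% and 2.94% in WT and 12.4%, 8.77% and 7.56% in S34F. That share passed the adjusted p (log2 odds ratio 1.94 ± 0.53 SE, adjusted p = 0.0359 by edgeR) but not the minimum difference, with means of 2.56% and 9.58%. Its reads were few, 2 to 9 per WT library and 10 to 22 per S34F library.

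**Figure D1:**
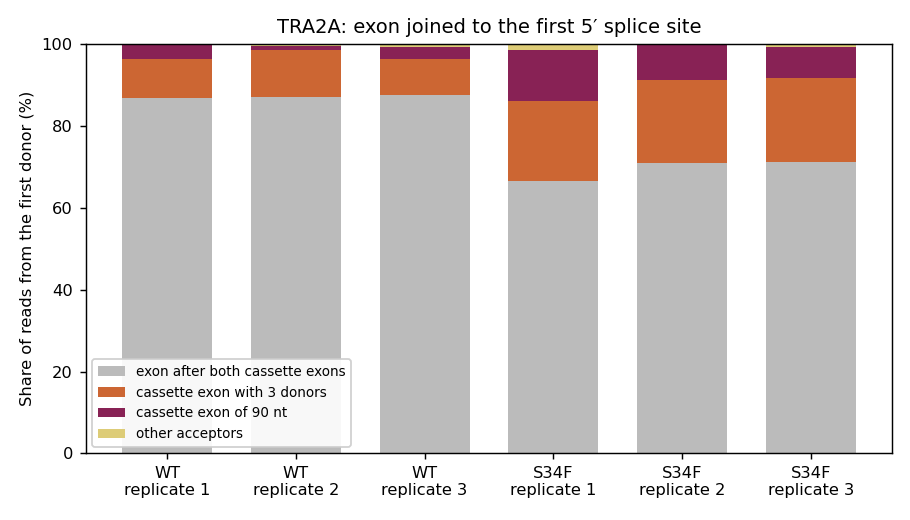
Stacked bars show, for each library, the share (percent of reads) of the first TRA2A 5′ splice site that was joined to each acceptor. The grey part is 86.7% to 87.5% in the WT libraries and 66.4% to 71.1% in the S34F libraries, and both cassette exon parts are larger in S34F.

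The alternatives of TRA2A were also counted as cassette exons, with the junctions on both sides of the exon. The 79 nt exon, from 23561973 to 23562051, was included in 6.28%, 6.91% and 5.56% of reads in WT and in 17.3%, 16.5% and 15.9% in S34F. The libraries of a group differed by under 2 points and the groups did not overlap. Inclusion rose from 6.25% ± 0.68 to 16.5% ± 0.71 (n = 3 each; log2 odds ratio 1.54 ± 0.40 SE, adjusted p = 0.0316 by edgeR). The 312 nt form, from 23561740, went from 6.91% ± 0.575 to 16.7% ± 0.56 and the 301 nt form, from 23561751, from 6.08% ± 0.46 to 15.0% ± 0.67, with edgeR adjusted p of 0.0401 and 0.0452. The 3 forms share their upstream junction and their skipping junction, so they are not separate evidence. The shared upstream reads count towards each form, so each value overstates the inclusion of that form alone. The 90 nt exon, from 23570800 to 23570889, went from 2.01% ± 1.1 to 7.99% ± 1.7 (edgeR adjusted p = 0.0445). Its unannotated downstream junction took 2.18%, 1.08% and 0% of the reads at 23561460 in WT and 2.48%, 1.92% and 3.79% in S34F. Those shares overlapped (edgeR adjusted p = 0.433), on 5, 2 and 0 reads in WT and 3, 2 and 10 in S34F. The rise of this exon was thus seen at its upstream junction and not shown at its downstream one. Inclusion here is the mean of both inclusion junctions over that mean plus the skipping junction. The 79 nt exon alone reached the 10 point minimum among these 4, with the shared upstream reads in its count.

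The downstream side was read from the junctions that end at the acceptor at 23561460, among which the reads of the skipping junction are the same as above. Of these, the junction that skips both exons made up 91.3%, 94.1% and 93.7% in WT and 75.2%, 77.9% and 78.4% in S34F, a fall from 93.0% ± 1.5 to 77.2% ± 1.7 (log2 odds ratio -1.94 ± 0.43 SE, adjusted p = 0.0167 by edgeR). The junction from the 79 nt form rose within that total from 1.47% ± 0.35 to 7.47% ± 0.93 (log2 odds ratio 2.35 ± 0.59 SE, adjusted p = 0.0365 by edgeR), on 2 to 4 reads per WT library and 8 to 17 per S34F library. The other 2 forms, from the donors at 23561739 and 23561750, did not pass. Donor usage was called for 1 of 80 events in the 10 genes, lower in S34F, and for 0.934% of 48269 in all, 0.476% being lower.

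The TRA2A calls were lost in several fits, with little change in size. The log2 odds of the 79 nt exon stayed between 1.42 and 1.62 over every setting run. Its adjusted p was 0.059 with DESeq2 and 0.0971 with limma, it was 0.148 where low counts were not filtered out, and it was 0.0774 without WT replicate 2, 0.0601 without WT replicate 3, 0.0868 without S34F replicate 1, 0.093 without S34F replicate 2 and 0.134 without S34F replicate 3. With multi-mapped reads added the adjusted p was 0.0392 and the difference was under 10 points. The main acceptor's adjusted p was 0.134 with DESeq2, 0.126 with limma, 0.123 with no low-count filter, 0.0546 without WT replicate 2, and 0.0757, 0.0648 and 0.0955 without S34F replicates 1, 2 and 3. For the skipping junction among reads at 23561460 it was 0.0266 with DESeq2, 0.128 with limma, 0.0739 with no low-count filter, 0.0851 without WT replicate 2, and 0.0825, 0.0857 and 0.138 without S34F replicates 1, 2 and 3.

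TRA2B, the paralog of TRA2A, had a difference in the same direction that did not pass. Its 276 nt exon, on chromosome 3 from 185649365 to 185649640 in the intron after the first exon, is in the place of the known TRA2B poison exon. It was included in 11.2%, 6.39% and 9.76% of reads in WT and in 15.9%, 14.1% and 13.9% in S34F. The 3 S34F libraries lay above the 3 WT libraries. The means were 9.12% ± 2.5 and 14.7% ± 1.1 (log2 odds ratio 0.80 ± 0.35 SE, adjusted p = 0.169 by edgeR), on 379 to 911 reads per library. Both inclusion junctions lay higher in S34F: the upstream one took 9.60% ± 2.3 of its donor's reads in WT and 15.1% ± 1.0 in S34F (edgeR adjusted p = 0.215), and the downstream one took 8.26% ± 2.7 and 13.6% ± 1.4 of its acceptor's reads (edgeR adjusted p = 0.248).

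A further difference of TRA2B lay in the acceptors that were joined to the 5′ splice site of that exon's downstream intron. The acceptor at 185644523 took every read of the donor at 185649364 in WT (64, 33 and 31 reads). In S34F it took 67 of 71, 51 of 54 and 120 of 126 reads, or 94.4%, 94.4% and 95.2%. The groups did not overlap, and the adjusted p was 0.0716 (edgeR). The other cassette exons of TRA2B, of 60, 134 and 189 nt, were included at 97.4% to 99.4% on average in both groups, and none of them passed.

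SRSF2, also known as SC35, is a general SR protein, and a cassette exon in its 3′ untranslated part is known to make transcripts subject to decay. The 104 nt exon (chromosome 17, minus strand, 74731854 to 74731957) was included in 9.71%, 6.92% and 9.64% of reads in WT and in 18.5%, 13.5% and 13.1% in S34F. All S34F libraries lay above all WT libraries, and S34F replicate 1 was the highest. The means were 8.76% ± 1.6 and 15.0% ± 3.0 (log2 odds ratio 0.88 ± 0.33 SE, adjusted p = 0.111 by edgeR), on 1058 to 3324 reads per library, so the shares did not pass. A longer form of the exon, of 258 nt, went from 3.71% ± 0.72 to 6.72% ± 1.8 (edgeR adjusted p = 0.126). This value counts the upstream junction, which both forms share. The junction out of the longer form, from 74731241 to 74731699, did not rise. It took 0.663% ± 0.075 of its acceptor's reads in WT and 0.643% ± 0.21 in S34F, with overlapping groups (edgeR adjusted p = 0.991).

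The level of the junction into that exon did pass. The junction from 74731958 to 74732235 had 4.52, 3.37 and 3.92 RPM in WT and 8.27, 7.69 and 8.40 in S34F. The S34F libraries agreed within 1 RPM and each was above 7, where none of the WT libraries reached 5. It rose from 3.94 ± 0.58 to 8.12 ± 0.38 RPM (log2 fold change 1.03 ± 0.19 SE, adjusted p = 0.0469 by edgeR). It was 1 of 94 junctions tested in the 10 genes that was called, against 0.3% of 98719 in all, of which 0.142% were called higher and 0.158% lower. The junction out of the exon, from 74731241 to 74731853, had 8.14, 6.26 and 6.55 RPM in WT and 12.4, 13.5 and 13.8 in S34F (log2 fold change 0.91 ± 0.18 SE, adjusted p = 0.057 by edgeR). As a share of the gene's own junction reads, a measure added after the data were seen, the junction into the exon was at 3.83%, 2.80% and 3.92% in WT and 8.27%, 5.60% and 5.85% in S34F (two-sided exact permutation p = 0.1, the smallest that 3 against 3 libraries allow).

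The SRSF2 call was kept in some fits and lost in others. Its adjusted p was 0.00423 with DESeq2, 0.006 with no low-count filter and 0.0378 without WT replicate 1. It was 0.0511 with multi-mapped reads added, 0.228 without WT replicate 2, 0.186 without WT replicate 3, 0.137 without S34F replicate 1, 0.0614 without S34F replicate 2 and 0.139 without S34F replicate 3. Further along the same untranslated part, the junction from 74730645 to 74731142 had 10.9, 10.9 and 11.8 RPM in WT and 7.42, 12.9 and 7.76 in S34F, with overlapping groups (edgeR adjusted p = 0.68).

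SRSF1, also known as SF2 or ASF, was the first SR protein to be described, and it too is known to be controlled through its 3′ end. The junction from 56081363 to 56082283 on chromosome 17 had 3.58, 6.70 and 8.15 RPM in WT and 5.16, 3.26 and 2.78 in S34F. The groups overlapped through WT replicate 1 (log2 fold change -0.73 ± 0.32 SE, adjusted p = 0.349 by edgeR). An unannotated junction, from 56082403 to 56083161, skips a stretch that annotated junctions treat as an exon of 187 or 203 nt. It took 5.30%, 3.49% and 2.76% of its donor's reads in WT and 7.88%, 4.82% and 5.95% in S34F. These shares overlapped too (means 3.85% ± 1.3 and 6.21% ± 1.5, edgeR adjusted p = 0.286).

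SRSF3 and SRSF7 are small SR proteins with a single RNA recognition motif, and SRSF7 also has a zinc knuckle. The poison exon of SRSF3 did not pass. The 456 nt exon on chromosome 6, from 36567598 to 36568053, was included in 6.33%, 6.12% and 8.59% of reads in WT and in 7.47%, 7.99% and 9.10% in S34F. The groups overlapped through WT replicate 3, and the means were 7.01% ± 1.4 and 8.19% ± 0.83 (log2 odds ratio 0.26 ± 0.32 SE, adjusted p = 0.67 by edgeR). With 1281 to 3142 reads per library, SRSF3 was among the most deeply read of these exons.

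In SRSF7 the groups did not overlap in inclusion of its poison exon. They were also apart at an unannotated splice site in it and at a small exon further on. No event of SRSF7 passed the adjusted threshold. The 449 nt exon on chromosome 2, from 38976040 to 38976488, was included in 5.03%, 7.25% and 6.77% of reads in WT and in 7.67%, 9.90% and 8.74% in S34F. The groups were apart by under 1 point at the closest, and the means were 6.35% ± 1.2 and 8.77% ± 1.1 (log2 odds ratio 0.51 ± 0.33 SE, adjusted p = 0.351 by edgeR). A shorter form of 107 nt uses an unannotated 5′ splice site at 38976381 inside the exon. That site gave 1.80%, 2.25% and 1.48% of the reads at the acceptor at 38975796 in WT and 4.43%, 4.63% and 3.70% in S34F. Each S34F library was above each WT library (log2 odds ratio 1.22 ± 0.38 SE, adjusted p = 0.0817 by edgeR).

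The small exon of SRSF7, of 36 nt from 38973286 to 38973321, did not pass with all libraries. Skipping took 13.5%, 15.8% and 12.9% of reads in WT and 7.79%, 7.02% and 7.94% in S34F. The libraries of each group lay close together and the groups did not overlap. The means were 14.1% ± 1.5 and 7.58% ± 0.50 (log2 odds of inclusion 0.99, SE 0.31, edgeR adjusted p = 0.0654), and without WT replicate 1 the adjusted p was 0.0328. A 69 nt exon of SRSF7, from 38974204 to 38974272, was included in 3.02% of reads in WT replicate 1 against 0.212% and 0.395% in the other two WT libraries, and in 2.82%, 2.01% and 2.24% in S34F. It was not past the threshold with all libraries (log2 odds 1.20, edgeR adjusted p = 0.245), and it was without WT replicate 1 (log2 odds 3.00, edgeR adjusted p = 0.00114).

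SRSF4, SRSF5 and SRSF6 carry 2 RNA recognition motifs each. In SRSF4 a 90 nt exon on chromosome 1, from 29476615 to 29476704, was skipped more in S34F. Skipping took 2.43%, 1.73% and 1.37% of reads in WT and 6.93%, 5.94% and 7.12% in S34F. The lowest S34F library was more than 3 points above the highest WT library. Inclusion went from 98.2% ± 0.54 to 93.3% ± 0.64 (log2 odds ratio -1.91 ± 0.44 SE, adjusted p = 0.0212 by edgeR), which passed the adjusted p and not the 10 point minimum. The skipping junction had 9, 7 and 4 reads in WT and 23, 13 and 46 in S34F. With multi-mapped reads added the log2 odds were -0.82 and the adjusted p was 0.202. The adjusted p was also over 0.05 with limma (0.0777), with no low-count filter (0.0539) and without WT replicate 2 (0.0742) or S34F replicates 1, 2 or 3 (0.0678, 0.0711 and 0.121).

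The low-inclusion exon of SRSF4, of 195 nt from 29486376 to 29486570, was included in 3.37%, 3.52% and 2.61% of reads in WT and in 4.38%, 6.19% and 5.77% in S34F. The groups did not overlap and the difference did not pass (log2 odds ratio 0.78 ± 0.43 SE, adjusted p = 0.283 by edgeR). Its upstream junction took 0.865%, 2.08% and 1.32% of the donor's reads in WT and 4.38%, 4.71% and 4.30% in S34F (log2 odds ratio 1.66 ± 0.53 SE, adjusted p = 0.0706 by edgeR). That junction had 3 to 7 reads per WT library and 9 to 22 per S34F library. The downstream junction of the exon took 5.72%, 4.58% and 3.45% of its acceptor's reads in WT and 4.04%, 7.07% and 7.10% in S34F. Those shares overlapped (edgeR adjusted p = 0.719).

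**Figure D2:**
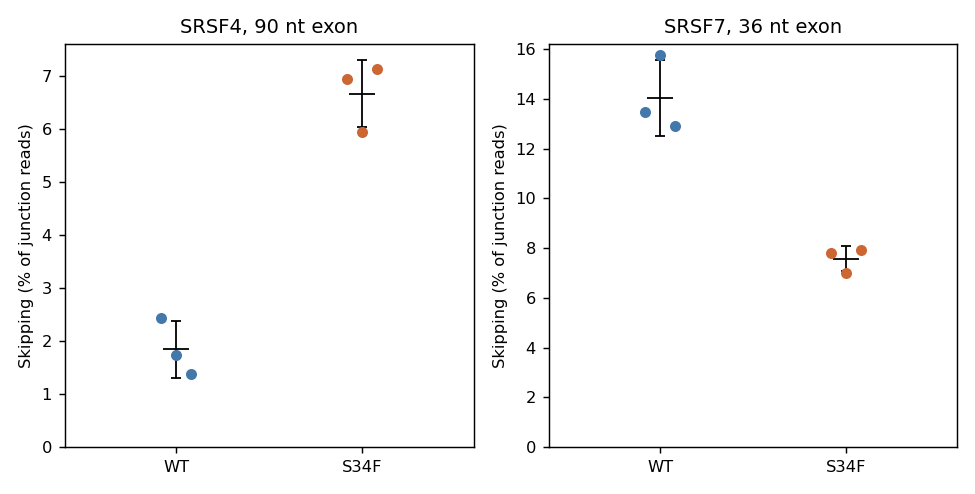
Points show, for each library, the skipping of the 90 nt exon of SRSF4 (left) and of the 36 nt exon of SRSF7 (right) in percent of junction reads, with the mean and SD of 3 WT and 3 S34F libraries in black. SRSF4 skipping is 1.37% to 2.43% in WT and 5.94% to 7.12% in S34F, and SRSF7 skipping is 12.9% to 15.8% in WT and 7.02% to 7.94% in S34F.

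SRSF5 had a skipping junction that was seen in S34F only by a small number of reads. The unannotated junction on chromosome 14 from 70235392 to 70235898, which skips a 99 nt exon, had 0 of 2797 reads of its donor in the WT libraries together, which allows a share of up to 0.107%. It had 10, 3 and 6 reads in S34F, or 0.807%, 0.377% and 0.305% of its donor. The mean share in S34F was 0.496%, or 4.63 times the share that 3 reads over the WT group would give, counting error in S34F aside. It passed the adjusted p (edgeR adjusted p = 0.022) and not the minimum difference. The adjusted p of the exon's inclusion, 0.0271 with all libraries, was 0.0519 with limma, 0.0755 without WT replicate 2, 0.0794 without S34F replicate 2 and 0.0902 without S34F replicate 3. The low-inclusion exon of SRSF5, of 532 nt and so over the 500 nt limit set for the main test, was at 0.729%, 1.99% and 2.27% in WT and 0.801%, 0.597% and 0.706% in S34F, lower on average and with overlapping groups (edgeR adjusted p = 0.201).

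SRSF6 and SRSF11 had minor cassette exons with the highest inclusion, and neither exon passed. The 268 nt exon of SRSF6 on chromosome 20, from 42087793 to 42088060, was included in 23.6%, 27.2% and 35.1% of reads in WT and in 28.1%, 19.7% and 21.9% in S34F (log2 odds ratio -0.39 ± 0.36 SE, adjusted p = 0.543 by edgeR). Here the mean was lower in S34F, at 23.2% ± 4.4 against 28.6% ± 5.9. SRSF11, a more distant family member, has several cassette exons in 1 stretch of chromosome 1. Its 117 nt exon, from 70697542 to 70697658, was at 32.8%, 16.2% and 24.9% in WT and 24.1%, 17.3% and 22.4% in S34F (edgeR adjusted p = 0.756). In WT its libraries differed by more than the groups did, and the sign turned without WT replicate 1 (log2 odds of -0.23 with all libraries and 0.10 without it). A 33 nt exon of SRSF11, from 70712800 to 70712832, was at 9.05% in WT replicate 1 and at 1.63% to 3.78% in the other 5 libraries. In the same gene, the junction from 70694239 took 43.5%, 50% and 54.5% of the reads at the acceptor at 70696777 in WT. In S34F these shares were 61.2%, 55% and 69.9%. The groups did not overlap, by a narrow margin, and the difference did not pass (edgeR adjusted p = 0.317). The reads at that acceptor were 40 to 146 per library.

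Set side by side, the most-read minor cassette exon could be found in 9 of the 10 genes, SRSF1 being without one. The choice was made after the data were seen, and took the exon with annotated junctions, a WT mean under 50% and the most inclusion reads. The mean was higher in S34F in 6 of the 9 and lower in SRSF5, SRSF6 and SRSF11. In 5 of the 9, TRA2A, TRA2B, SRSF2, SRSF4 and SRSF7, all S34F libraries lay above all WT libraries, and in 0 of the 9 they all lay below. In SRSF4 and SRSF7 the groups overlapped in the share of the exon's downstream junction. Among all 3125 annotated cassette exons of up to 500 nt with a WT mean under 50%, which were not limited to the most-read exon of a gene and do not hold the SRSF5 exon, 20.4% had all S34F libraries above and 13.1% had all below, 57.7% had the higher mean in S34F and 3.58% were called. The median ratio of S34F to WT inclusion over the 9 was 1.38. Exon length was a multiple of 3 in 5 of them: SRSF3, SRSF4, SRSF11, TRA2A in its 312 nt form and TRA2B.

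**Figure D3:**
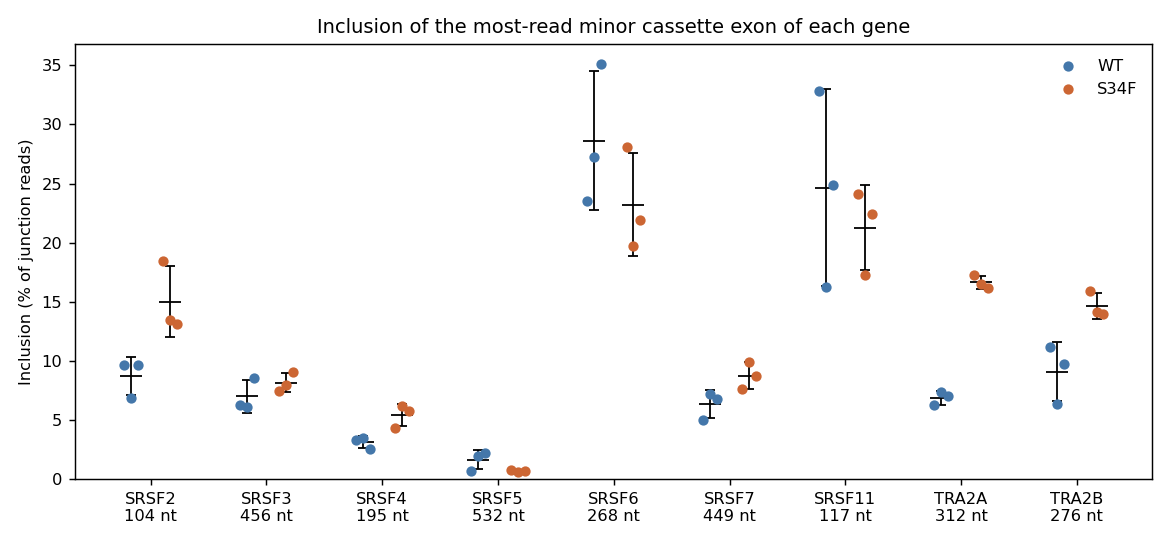
Points show inclusion (percent of junction reads) of the most-read minor cassette exon of 9 genes in each of 3 WT and 3 S34F libraries, with mean and SD in black and the exon length under the gene name. The groups are apart in SRSF2, SRSF4, SRSF7, TRA2A and TRA2B, and overlap in SRSF3, SRSF5, SRSF6 and SRSF11.

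Over all cassette exons tested in the 10 genes, 37 combinations of an exon and a skipping junction, 1 was called, the 79 nt exon of TRA2A, against 2.74% of 19272 in all. Without the minimum difference 6 of the 37 passed, 4 of them in TRA2A with 1 skipping junction in common, against 5.76% in all. The groups did not overlap in 18 of the 37, with S34F above in 15 and below in 3, where 29.2% of all combinations had groups apart, 12.7% with S34F above and 16.6% below. Of the 15, 4 were in TRA2A and 3 in SRSF2, each set with 1 skipping junction in common. The 15 are therefore not separate evidence, and the difference from the share over all combinations was not tested. An unadjusted p under 0.05 was found for 13 of the 37, or 35.1%, against 23.9% in all. For acceptor usage, 5 of the 77 events passed the adjusted p alone (4.64% in all). An unadjusted p under 0.05 was found for 20 (19.9% in all). The groups were apart in 27 (25.2% in all), with S34F above in 13 and below in 14 (12.7% and 12.5% in all). The shares of 1 splice site sum to the whole, so a rise at 1 junction brings a fall at others. The counts above and below are thus tied, here and for donor usage. For donor usage, 5 of the 80 events passed the adjusted p alone (2.04% in all). An unadjusted p under 0.05 was found for 19 (17.3% in all). The groups were apart in 24 (22.4% in all), with S34F above in 13 and below in 11 (11.3% and 11.1% in all). In both classes, the 5 that passed were 2 in SRSF4, 2 in TRA2A and 1 in SRSF5, each pair at 1 shared splice site. The same skipping junctions enter the cassette counts, so the 3 classes are not separate evidence. Of the 94 junctions, 12 had an unadjusted p under 0.05 (13.8% in all) and 13 had groups apart (17.6% in all), with S34F above in 11 and below in 2 (8.53% and 9.07% in all). The median absolute change over the 37 was 0.77 in log2 odds, beside 0.73 over all combinations. On simulated counts made from these libraries, the cassette test called 1% of 100 exons given a change of 1 in log2 odds and 52% of 100 given a change of 2, among 19272 combinations, with 1 unchanged combination called. The changes were given only to exons of intermediate inclusion. Many exons above lie nearer to full skipping or full inclusion, where the minimum difference is harder to reach. The simulated rates do not apply to those exons. The abundance test, which made the SRSF2 call, called 23% of 100 junctions changed by 1 on the log2 scale and 97% of 100 changed by 2, and with them 35 unchanged junctions among 98719.

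**Figure D4:**
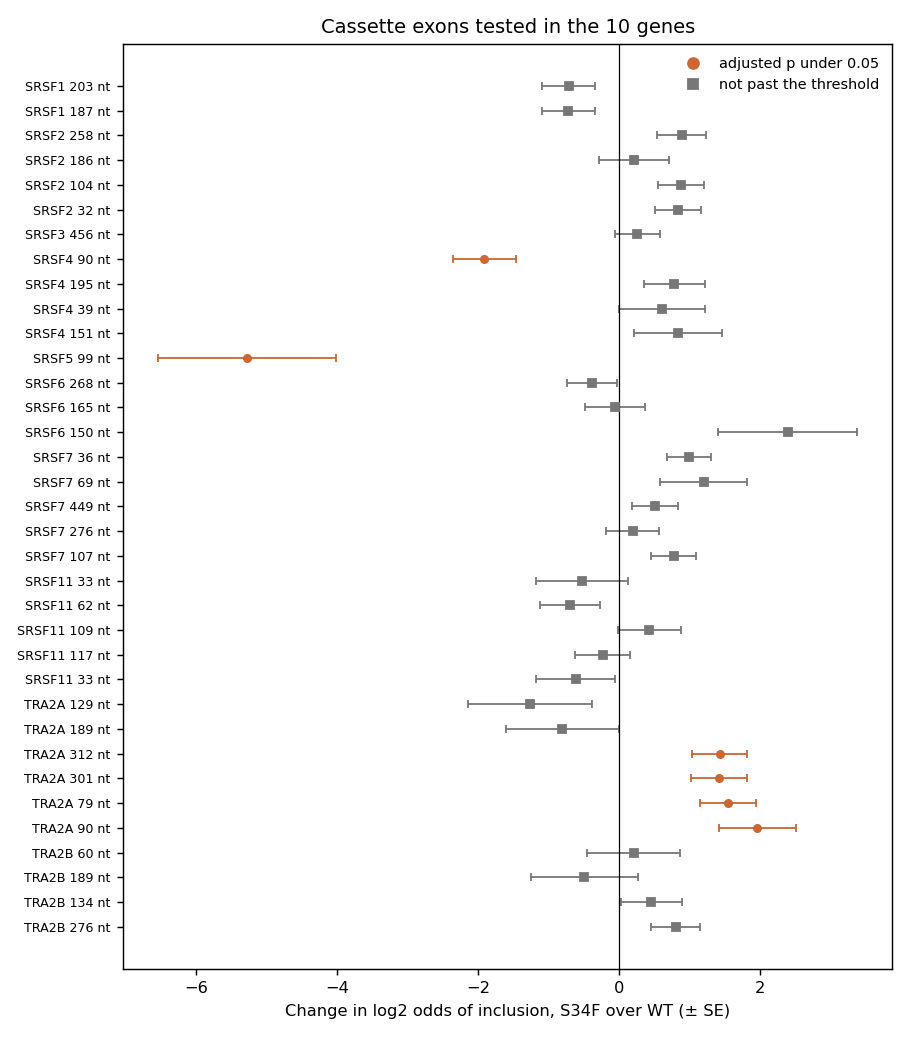
Each point is 1 cassette exon of the 10 genes, placed by its change in log2 odds of inclusion in S34F over WT with its SE, and labelled by gene and exon length. The exons of TRA2A of 79, 90, 301 and 312 nt lie to the right with adjusted p under 0.05, and those of SRSF4 of 90 nt and SRSF5 of 99 nt lie to the left.

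The summed junction reads of each gene did not differ between the groups beyond the spread of the libraries. The groups overlapped in all 10 genes, and the smallest two-sided exact permutation p among the 10 tests was 0.2, where 0.1 is the smallest possible. With TMM library sizes the p for SRSF5 was 0.1. SRSF6 had the largest ratio, with 124, 98.2 and 78.9 RPM in WT and 112, 137 and 145 in S34F, a ratio of means of 1.31 (exact permutation p = 0.2). SRSF5 had 299, 261 and 241 RPM in WT and 356, 294 and 335 in S34F, a ratio of 1.23 (exact permutation p = 0.2). TRA2A, whose exon change was called, had 66.7, 59.3 and 55.9 in WT and 47.6, 55.7 and 61.6 in S34F, a ratio of 0.907 (exact permutation p = 0.4). The ratios of the other 7 genes were from 0.918 for SRSF4 to 1.13 for SRSF2. Fewer cells expressing a gene and less RNA per cell cannot be told apart in such bulk libraries.

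**Figure D5:**
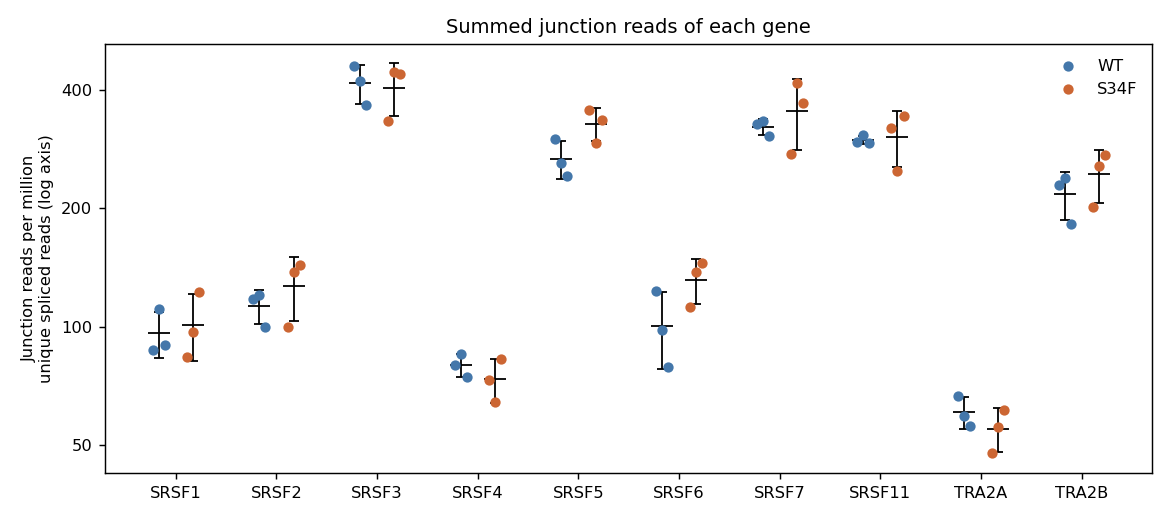
Points show the junction reads of each of the 10 genes in RPM, on a log axis, in 3 WT and 3 S34F libraries, with mean and SD in black. The points of the groups overlap in every gene, and the level depends on how many introns a gene has, so genes cannot be compared with each other.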

How the data were processed

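Splice junctions were counted in 3 WT and 3 S34F libraries. The deposited values are raw counts of uniquely mapped and of multi-mapped reads per junction, with the largest overhang in nt as a further number, in the layout of STAR output; STAR and hg19 are named in the submitters' processing notes, and the STAR version, annotation and filters are not given in the sources used here. Junctions with a canonical motif were kept and unique counts used. Events were tested where each library had 20 or more reads and where 10 lay on each side (for cassette exons, on each of the 3 junctions) over the 6; junction levels needed 20 reads in 3 libraries. Tests were run over the whole table with edgeR 4.0.16 (R 4.3.3), the quasi-likelihood test in legacy mode: for shares, 2 counts per library with library intercepts, a count type term and its interaction with group; for levels, TMM scaling. Standard errors are the absolute coefficient over the square root of F. Gene sums were compared by two-sided exact permutation tests. The fits were tested on simulated data; alternatives used DESeq2 1.42.0 and limma 3.58.1. Python 3.11.15, pandas 2.3.3 and scipy 1.17.1 handled the tables.

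The genes were given, and members, lists and marker windows were chosen with earlier results of these data known; the minor exon of each gene and the share of gene reads were chosen after the values were seen. Named were every cassette exon tested, by its most-read combination, every called event and the event with the largest difference per gene and class. The text describes a part of them. Those left out include some where the groups did not overlap, and the counts over all events cover them. Other SR-related, kinase and decay genes were not analysed here, since no annotation of the build was used, and 1 further K562 marker is not reported here. Replicate libraries differed by more than sampling noise in every pair (chi-square per degree of freedom from 4.70 to 14.7).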

Additional observations from a re-analysis of the deposited data

How the results depend on the processing

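Leaving out 1 library or changing the tool moved most counts of calls. In the 10 genes, cassette exon inclusion had 1 call, 0 with DESeq2, limma, no low-count filter, multi-mapped reads, a minimum difference of 20 points or the replicate block, and 6 with no minimum difference. Acceptor usage and donor usage had 1 call each, 0 with limma, no low-count filter or the minimum of 20 points, and 5 with no minimum; acceptor usage also had 0 with DESeq2. Junction abundance had 1 call, 2 with DESeq2, no filter or scaling by total reads, and 0 with multi-mapped reads or the replicate block. Leaving out 1 library gave from 0 to 1 calls for each share class and from 0 to 3 for junction abundance. Over all cassette events, 528 calls became 271 with DESeq2, 0 with limma (4342 at an unadjusted p under 0.05), 313 with at least 50 reads, 1110 with no minimum, 221 with 20 points and 186 with the replicate block, and 0 to 1042 without 1 library. Over all acceptor events, 1092 became 150 with DESeq2, 0 with limma (9648 at an unadjusted p under 0.05), 495 with no filter, 681 with at least 50 reads, 2392 with no minimum and 474 with 20 points, and 77 to 1932 without 1 library. Over all donor events, 451 became 185 with DESeq2, 0 with limma (7794 at an unadjusted p under 0.05), 208 with no filter, 983 with no minimum and 218 with 20 points, and 4 to 1208 without 1 library. Over all junctions, 296 became 1353 with DESeq2, 2904 with no filter, 93 with the replicate block and 547 with scaling by total reads, and 1 to 626 without 1 library. Among the fits that left out 1 library, those without S34F replicate 3, the deepest, made the fewest calls over all events in every class. Where no construction of the setting shows the cause, the cause was not tested.

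The replicate numbers did not pair the libraries: same-numbered deviations from the group means correlated at -0.18, -0.15 and -0.03 over the tested junctions. With the replicate block the adjusted p was 0.0906 for the 79 nt exon of TRA2A, 0.0931 for the SRSF2 junction, 0.0576 for the 90 nt exon of SRSF4 and 0.0502 for the 99 nt exon of SRSF5, and 0.0351 and 0.0292 for the TRA2A acceptor and donor calls. Of the named events, 9 changed sign, in 13 combinations of an event and a left-out library, with adjusted p of at least 0.64. The ranges of inclusion and usage that follow are over all settings that tested the event. For the 165 nt exon of SRSF6 the log2 odds ratio of inclusion ran from -0.259 to 0.0922. It was 0.0922 and 0.0806 without WT replicate 3 and S34F replicate 3. For the 276 nt exon of SRSF7 it ran from -0.045 to 0.391 (lowest without WT replicate 1). In SRSF11 it ran from -0.58 to 0.0976 for the 117 nt exon and from -1.08 to 0.368 for the 33 nt exon. Both were highest without WT replicate 1. For the 60 nt exon of TRA2B it ran from -0.142 to 0.79. It was -0.142, -0.0179 and -0.112 without WT replicate 3, S34F replicate 2 and S34F replicate 3. For the 189 nt exon of TRA2B it ran from -1.98 to 0.188 (highest without WT replicate 2). Usage ran from -0.828 to 0.278 for the SRSF1 acceptor from 56081363 to 56082283 (highest without S34F replicate 3), from -0.113 to 0.196 for the SRSF3 donor from 36568054 to 36568928 (-0.113 and -0.0438 without WT replicate 1 and S34F replicate 3) and from -0.0262 to 0.313 for the SRSF5 donor from 70233973 to 70234854 (lowest without WT replicate 3). Over the fits without 1 library, the log2 ratio of gene reads ran from -0.0858 to 0.193 for SRSF1 (lowest without S34F replicate 3). For SRSF3 it ran from -0.122 to 0.083 (0.04 and 0.083 without WT replicate 1 and S34F replicate 1). For SRSF11 it ran from -0.0706 to 0.15 (-0.0117 and -0.0706 without S34F replicates 1 and 3). In the other 7 genes its sign held in those fits. Depth limits the shares of TRA2A, with 97 to 247 reads per library behind its 312 nt exon.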
